A study of Mus musculus with 12 samples.

Results

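Expression of 5 genes that move cholesterol and fatty acids in and out of cells, Abca1, Abcg1, Apoe, Cd36 and Pparg, was compared in A20 tumors that had been injected with saline, with an oil emulsion or with the same emulsion carrying a TLR4 agonist. The genes were taken by symbol and are 5 of the 770 genes of the panel, of which 750 were tested and 20 are reference genes. On the reference-scaled counts, Abca1, Abcg1, Apoe and Cd36 were 2.04 to 3.83 times higher in GLA-SE tumors than in PBS tumors. These 4 genes were called higher in edgeR, as were 68.4% of all tested genes. With panel median scaling none of the 5 genes was called higher. In edgeR no difference between SE and PBS tumors passed for any of the 5 genes. DESeq2 called 4 of them higher with the reference size factors, where it called 53 of the 750 tested genes. With its own size factors it called 1 of them, and 9 of all tested genes. After scaling, the single highest tumor for Abcg1, Apoe, Cd36 and Pparg was an SE tumor, SE 4. Before scaling, Abcg1 had 963 counts in SE 4, below 1114 in SE 3 and 986 in GLA-SE 3. Without SE 4 the log2 difference between SE and PBS tumors in edgeR fell from 2.81 to 1.37 for Cd36 and from 2.76 to 0.92 for Pparg. Of the SE tumors left, SE 3 was the highest for both genes. Relative to macrophage markers of the same tumor, Cd36 was higher in each of the 4 SE tumors than in any PBS or GLA-SE tumor. In this ratio 0.81% of 741 tested genes had all SE tumors above all PBS tumors, and 10.1% had all GLA-SE tumors below all SE tumors.

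A20 is a B-cell lymphoma line, and its cells were implanted under the skin of female Balb/c mice. About 7 days later the mice were divided into PBS, SE and GLA-SE groups of 4, and each tumor was injected 3 times, every other day, and collected 2 h after the last injection. SE is a stable oil-in-water emulsion, and GLA-SE is 10 µg of GLA, a synthetic TLR4 agonist, in 50 µl of 2% SE, so the SE group is the control for the emulsion that GLA-SE tumors also received. RNA was measured on nCounter, using NanoString's mouse panel of cancer immunity genes, whose barcoded probes are counted without amplification, and each tumor gave 810260 to 1612415 counts.

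Macrophages that take up more lipid than they burn must export cholesterol. ABCA1 and ABCG1 are membrane transporters that hand cholesterol to acceptor particles, apolipoprotein E is one of the proteins that carry it away, and the genes of all 3 are known targets of the sterol-sensing LXR receptors. CD36 is a scavenger receptor that takes up oxidized lipoproteins and long-chain fatty acids, and PPARγ, encoded by Pparg, is a fatty acid-activated nuclear receptor that is known to raise CD36 in macrophages and is also the central regulator of fat cells.

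The promoters of these genes are shown because LXR and PPARγ bind DNA as partners of RXR, at repeats of the bases AGGTCA or close variants. The RefSeq table of promoters (build GRCm38.p6) held 8 windows for 4 of the 5 genes, and 1 window is printed for each of Abca1, Apoe and Cd36, as the 250 bases before the annotated start, 5′ to 3′ on the strand of the gene, with the match in capitals. They lie at chr4:53159896-53160145, chr7:19699189-19699438 and chr5:17835897-17836146, all on the minus strand. Their starts lie within the annotated spans of the genes, which reach 53159988 for Abca1, 19701310 for Apoe and 17888959 for Cd36. Sequence before the outer ends of the Apoe and Cd36 spans was not among the windows and was not searched. For Apoe, the printed window is the one of 3 that held a match.
Abca1: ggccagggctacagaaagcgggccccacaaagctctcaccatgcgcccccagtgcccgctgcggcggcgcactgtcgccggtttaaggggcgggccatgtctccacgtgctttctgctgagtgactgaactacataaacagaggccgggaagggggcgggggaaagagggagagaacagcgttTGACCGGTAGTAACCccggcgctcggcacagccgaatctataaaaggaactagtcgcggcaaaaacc
Apoe: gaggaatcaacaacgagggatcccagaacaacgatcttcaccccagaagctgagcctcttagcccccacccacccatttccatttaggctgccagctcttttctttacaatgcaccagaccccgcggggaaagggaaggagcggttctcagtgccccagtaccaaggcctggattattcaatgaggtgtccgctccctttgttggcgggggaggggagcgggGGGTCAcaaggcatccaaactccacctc
Cd36: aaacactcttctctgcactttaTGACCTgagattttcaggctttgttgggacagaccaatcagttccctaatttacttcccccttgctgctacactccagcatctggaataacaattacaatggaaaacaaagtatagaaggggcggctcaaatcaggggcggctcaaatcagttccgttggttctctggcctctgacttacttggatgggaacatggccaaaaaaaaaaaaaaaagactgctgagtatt
In Abca1 the capitals mark, on the opposite strand, the motif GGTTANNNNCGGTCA, in which variants of the repeated bases are separated by 4 others, at bases -67 to -53. This motif was chosen after the window had been read, and it was found in 4 of 32851 promoter windows of this length (0.0122%). In Apoe the capitals mark GGGTCA at bases -28 to -23, and in Cd36 they mark AGGTCA on the opposite strand at bases -228 to -223. Of the 3 windows of Pparg, which are not printed, 2 held AGGTCA, at bases -28 to -23 and -9 to -4. AGGTCA or GGGTCA was found on either strand in 23.8% of all windows, so these single matches are common. Direct repeats of AGGTCA with 4 bases (0.0152% of windows) or 1 base (0.0335%) between them were not found in the 8 windows. A match describes letters only, and binding was not measured.

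The tumors of a group were not equally alike. The 7 B cell markers were counted in every tumor, at 41 deposited counts or more each. SE 3 and SE 4 stood apart from SE 1 and SE 2: the summed level of 9 macrophage and monocyte markers was 80729 and 116378 normalized counts, against 27292 and 33848 in SE 1 and SE 2 and 32197 to 40528 in PBS tumors. SE 4 also had 71141 normalized counts of Cfd, which encodes the fat cell product adipsin and is the panel's one adipocyte marker, against 76.7 to 3952 in the other 11 tumors. Its 4 fibroblast markers summed to 115926, against 26920 in SE 3, 2831 in SE 1 and 3602 in SE 2. In GLA-SE tumors the sum was at most 24330. The reference genes of SE 4 had the lowest geometric mean, 927 counts against 1501 to 2806, so that its counts were divided by 0.496 and thereby raised. SE 4 and SE 3 are therefore given separately wherever a result rests on them, and the part of other cell types in the results was not tested. In bulk tumors, more cells of a type and more RNA per cell cannot be told apart.

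Abca1, the first of the efflux transporters, had 987, 829.5, 812 and 1083 normalized counts in PBS tumors 1 to 4. GLA-SE tumors had 1743, 1851, 3046 and 1781. SE tumors had 1038, 736, 1964 and 2628. Every GLA-SE tumor was above every PBS tumor, with GLA-SE 3 far above the rest of its group, while SE 1 and SE 2 were at the level of PBS tumors and SE 3 and SE 4 at the level of GLA-SE tumors.

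Abcg1, the transporter that loads cholesterol onto mature lipoprotein particles, had 404, 219, 299.6 and 335 normalized counts in PBS tumors. GLA-SE tumors had 894, 835, 1089 and 942. SE tumors had 409, 261, 1388 and 1943. The GLA-SE tumors lay close together and clear of the PBS tumors, and the SE tumors fell on both sides of them.

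Apoe, the secreted acceptor, had 4335, 2528, 5783 and 3791 normalized counts in PBS tumors. GLA-SE tumors had 18333, 13919, 21909 and 8779. SE tumors had 3358, 5639, 30312 and 70939. Again no GLA-SE tumor overlapped with PBS tumors, and SE 3 and SE 4 exceeded every GLA-SE tumor.

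For Cd36, the uptake receptor, PBS tumors had 435, 453, 387 and 364 normalized counts. GLA-SE tumors had 862, 944, 1114 and 432. SE tumors had 449.6, 744, 1984 and 8321. GLA-SE 4 lay within the PBS range, so these groups overlapped, and all but SE 1 of the SE tumors were above every PBS tumor.

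Pparg was close to the limit of the assay. Its deposited counts were 21 to 45 in every tumor other than SE 3 (89) and SE 4 (277), where 20 is the threshold count in the methods of the study. After scaling, PBS tumors had 29.4, 20.6, 27.8 and 25.4 normalized counts, GLA-SE tumors 34.8, 38.5, 49.7 and 27.6, and SE tumors 16.7, 21.5, 111 and 559. The PBS and GLA-SE tumors overlapped, and SE 1 and SE 2 were not above the PBS tumors.

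**Figure D1:**
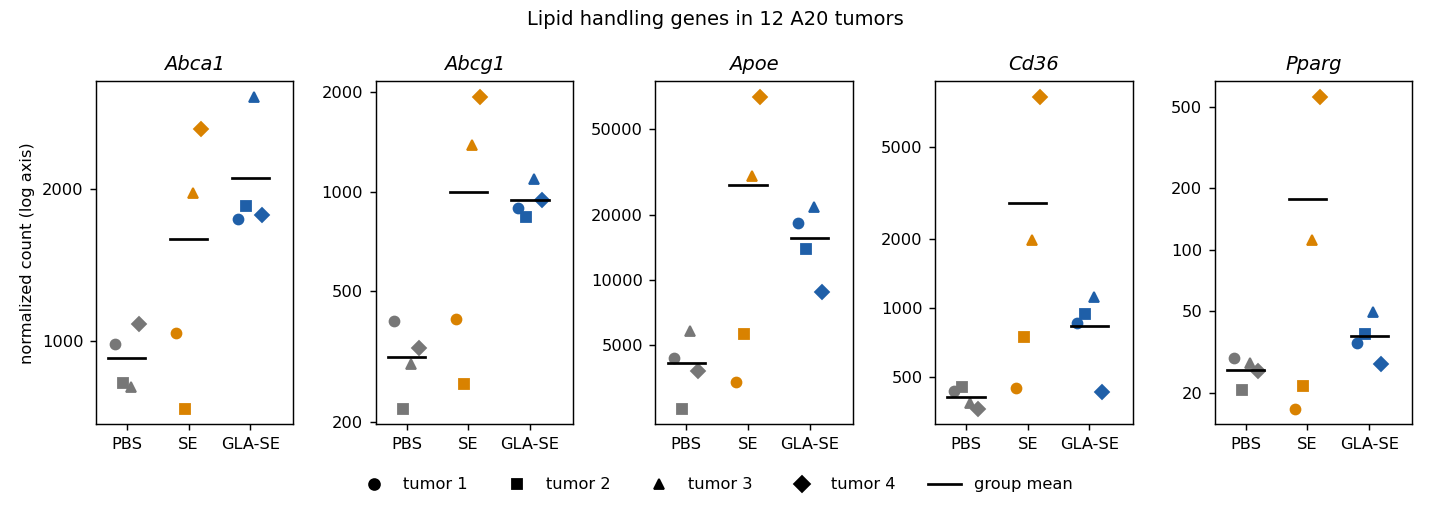
Normalized counts of the 5 genes on log axes, 1 panel a gene, in PBS, SE and GLA-SE tumors (4 each); each symbol is 1 tumor and the line is the arithmetic mean of the group. For Abca1, Abcg1 and Apoe all GLA-SE tumors lie above all PBS tumors, and for Apoe, Cd36 and Pparg the SE tumors spread from the level of PBS to 70939, 8321 and 559 counts in SE 4.

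The comparison of GLA-SE with PBS tumors asks what the complete treatment did. Of the 5 genes, 4 passed as higher (adjusted p under 0.05) in edgeR's quasi-likelihood test, against 68.4% of all tested genes, and 3 did not overlap between the groups, against 63.7% of all tested genes, so the counts of genes moved are close to those of the panel. The mean of Abca1 rose from 928 ± 130.3 to 2105 ± 629 normalized counts (SD, n = 4 each), a log2 fold change of 1.18 with a standard error of 0.20 (edgeR, adjusted p = 0.00146). Abcg1 rose by 1.58 with a standard error of 0.19 on the log2 scale (edgeR, adjusted p = 0.000333). Apoe rose by 1.94 with a standard error of 0.33 (edgeR, adjusted p = 0.00126), from 4109 ± 1348 to 15735 ± 5673 normalized counts (SD, n = 4 each).

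Cd36 rose less, by 1.03 on the log2 scale with a standard error of 0.26 (edgeR, adjusted p = 0.00804), and the two-sided exact permutation test on its 4 against 4 tumors gave p = 0.0857. The exact p of Abca1, Abcg1 and Apoe was 0.0286, the smallest that 70 assignments allow. Pparg differed by 0.54 with a 95% interval of 0.03 to 1.06 before adjustment, and the call was not made (edgeR, adjusted p = 0.0586). Without GLA-SE 4, its lowest GLA-SE tumor, the Pparg difference was 0.66 and passed (edgeR, adjusted p = 0.0291).

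Among the 750 tested genes ordered by this fold change, Apoe ranked 73, Abcg1 141, Abca1 272, Cd36 319 and Pparg 500. The median log2 fold change of all tested genes was 0.90, since most of the panel stood higher against its reference genes, and the 5 genes had a median of 1.18. Scaled to the panel median instead, the median of all genes was -0.40 and no gene of the 5 was called higher: the values turned to -0.14 for Abca1, -0.30 for Cd36 and -0.76 for Pparg, the last called lower (edgeR, adjusted p = 0.00952), while Abcg1 and Apoe stayed positive at 0.32 and 0.62. With TMM scaling Abcg1 (0.68) and Apoe (1.00) were called and Pparg turned to -0.38. Direction against PBS therefore held under every scaling tried for Abcg1 and Apoe alone. Fitted with all 12 tumors, which brings in the spread of the SE tumors, Apoe and Cd36 were no longer called (edgeR, adjusted p = 0.07 and 0.256).

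**Figure D2:**
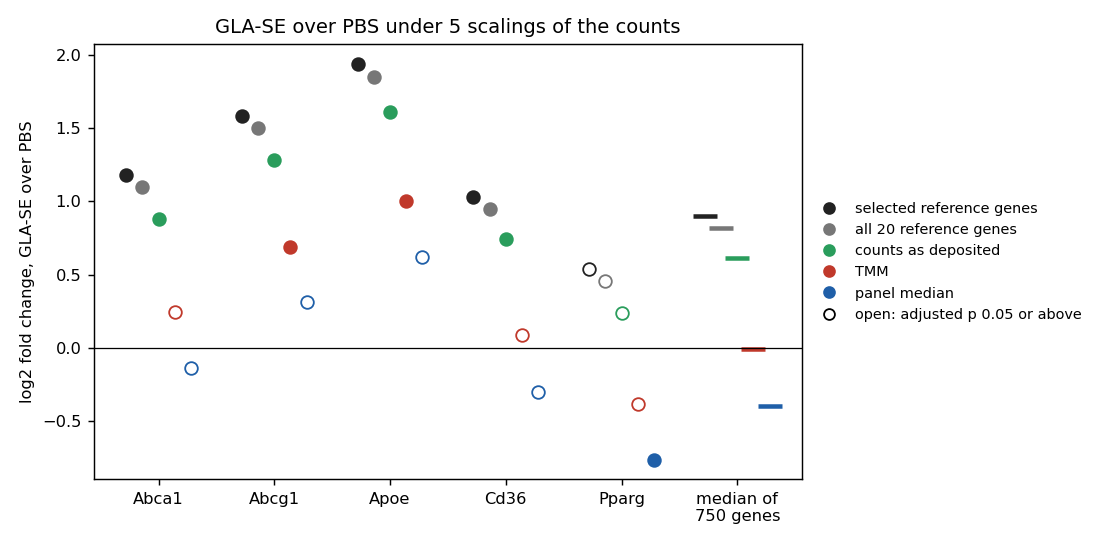
Log2 fold change of GLA-SE over PBS tumors for the 5 genes, and its median over the 750 tested genes (bars), under 5 scalings of the counts; filled circles have an adjusted p under 0.05 in edgeR and open circles do not. From the selected reference genes to the panel median the values of Abca1, Cd36 and Pparg cross 0, to -0.14, -0.30 and -0.76, while Abcg1 and Apoe remain above it.

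The comparison of SE with PBS tumors asks what the emulsion did without the agonist. None of the 5 genes was called in edgeR, where 0% of tested genes were called either way and 17.9% (134 genes) had an unadjusted p under 0.05. DESeq2 called 9 genes of the panel with its own size factors and 53 with those of the reference genes, and limma 0. The log2 differences were 0.78 for Abca1, 1.67 for Abcg1, 2.75 for Apoe, 2.81 for Cd36 and 2.76 for Pparg, each with an adjusted p of 0.256 in edgeR. DESeq2 with the reference size factors called Abcg1, Apoe, Cd36 and Pparg higher (adjusted p = 0.0451, 0.0122, 0.0259 and 0.0461), and with its own size factors it called Cd36 (1.89, adjusted p = 0.0131). Without SE 4 the differences in edgeR were 0.42, 1.12, 1.67, 1.37 and 0.92 for the 5 genes in the order above. None was called in edgeR, as with all tumors. Of the SE tumors left, SE 3 was the highest for each of the 5 genes. Apoe was 30312 normalized counts in SE 3 against 3358 and 5639 in SE 1 and SE 2. Cd36 was 1984 against 449.6 and 744, and Pparg 111 against 16.7 and 21.5. A fit without both SE 3 and SE 4 was not run. DESeq2 was not refitted without SE 4, so whether its calls rest on that tumor was not tested. This comparison and that of GLA-SE with PBS use the same 4 PBS tumors.

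Against SE, GLA-SE tumors address the agonist beyond its carrier. None of the 5 genes was called in edgeR, where 2.13% of tested genes were called either way and 18.5% had an unadjusted p under 0.05. The log2 difference was 0.40 for Abca1, with a 95% interval of -0.54 to 1.35. It was -0.09 for Abcg1, with an interval of -1.43 to 1.25, and -0.81 for Apoe, with an interval of -2.80 to 1.19. Cd36 and Pparg had lower means in GLA-SE tumors, by -1.78 (-3.77 to 0.22) and -2.22 (-4.68 to 0.25), and without SE 4 these were -0.34 and -0.38. DESeq2 with its own size factors called both lower (adjusted p = 0.0125 for Cd36 and 0.0207 for Pparg), and with the reference size factors neither (0.0911 and 0.0985). Without SE 4 the panel had 105 called genes instead of 16 (4 without GLA-SE 2, GLA-SE 4 or SE 3, 7 without SE 2 and 9 without SE 1), and Abcg1 and Apoe turned to 0.46 and 0.26, none of the 5 genes being called.

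Other genes of lipid and debris uptake were compared in lists. Of 6 lipoprotein and scavenger receptors, 6 were higher in GLA-SE than in PBS tumors in edgeR, against 68.4% of all tested genes. Their median log2 fold change was 1.61, against 0.90 over all tested genes. With panel median scaling 3 of them were called higher and the median was 0.30. Marco, a receptor for modified lipoproteins and bacteria, rose from 16.9 to 103 normalized counts, and Msr1, the class A scavenger receptor, rose by 1.96 from 470.4 to 1831. Lrp1, an endocytic receptor for ApoE-bearing particles, rose by 1.56 (edgeR, adjusted p = 0.000238). Trem2, a lipid-binding receptor of macrophages, rose by 1.45 in GLA-SE tumors, while its level was 88.6, 82.8, 847 and 1644 normalized counts in SE tumors 1 to 4. As for the 5 genes, SE 3 and SE 4 were high, and SE 1 and SE 2 were here below the PBS range of 91.5 to 162.

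Among 6 genes for apolipoproteins, lipid binding and lipid hydrolysis, 3 were higher in GLA-SE than in PBS tumors, against 68.4% of all tested genes. The median was 0.37, below that of all tested genes, and with panel median scaling 4 were lower and none higher. Clu, which encodes apolipoprotein J, rose by 1.54 and Lbp, the binding protein for bacterial lipid A, by 1.81, whereas the phospholipase gene Pla2g6 rose by 0.47 (edgeR, adjusted p = 0.0326). Saa1, Pla2g1b and Smpd3 were not called, at 0.28, -0.05 and -0.15, and Saa1 and Pla2g1b had group means near 20 normalized counts.

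All 4 genes for the uptake of apoptotic cells were higher in GLA-SE than in PBS tumors, with a median of 1.53 against 0.90 over all tested genes, of which 68.4% were called higher, and 1 of the 4 was called higher with panel median scaling. The receptor genes Mertk and Axl rose by 1.86 and 1.20, and Timd4, a phosphatidylserine receptor of resident macrophages, by 2.38 from 24.5 to 127 normalized counts. Timd4 was 837 in SE 4 against 15.3 to 67.3 in the other SE tumors. Of 6 genes for IL-4 signalling and alternative activation, which is known to raise PPARγ in macrophages, 6 were called higher with a median of 1.31, but with panel median scaling none was called higher and 1 was called lower. Of all these list genes, Arg1 alone was called between GLA-SE and SE tumors, by 2.84 (edgeR, adjusted p = 0.00777), and its SE tumors had 86.9 to 228 normalized counts against 969 to 1383 in GLA-SE tumors. In SE against PBS tumors 0 of these list genes were called in edgeR.

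Markers of several cell types moved with the same groups. The 9 macrophage and monocyte markers were all higher in GLA-SE than in PBS tumors, with summed levels of 90547 to 132245 against 32197 to 40528 normalized counts and a median log2 fold change of 1.57, but with panel median scaling 2 of them were called higher and the median was 0.27. The 6 endothelial and 4 fibroblast markers were also all called higher, with medians of 0.97 and 1.41, whereas with panel median scaling neither list had a gene called higher. Of the 7 B cell markers, 2 were lower and none higher, with a median of -0.22, and with panel median scaling 7 were lower, with a median of -1.52. Of 4 neutrophil, 4 T cell and 3 platelet markers, 3, 3 and 2 were called higher in GLA-SE tumors, against 68.4% of all tested genes. With panel median scaling 2 neutrophil markers were higher and 1 lower, and of the T cell and platelet markers none was higher and 1 and 2 were lower. Relative to the PBS mean, the log2 level of Cd36 in SE tumors 1 to 4 was 0.14, 0.86, 2.28 and 4.35, while that of Cfd was -2.28, -2.32, 2.32 and 7.52 and that of the macrophage markers was -0.22, -0.50, 1.55 and 2.14.

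**Figure D3:**
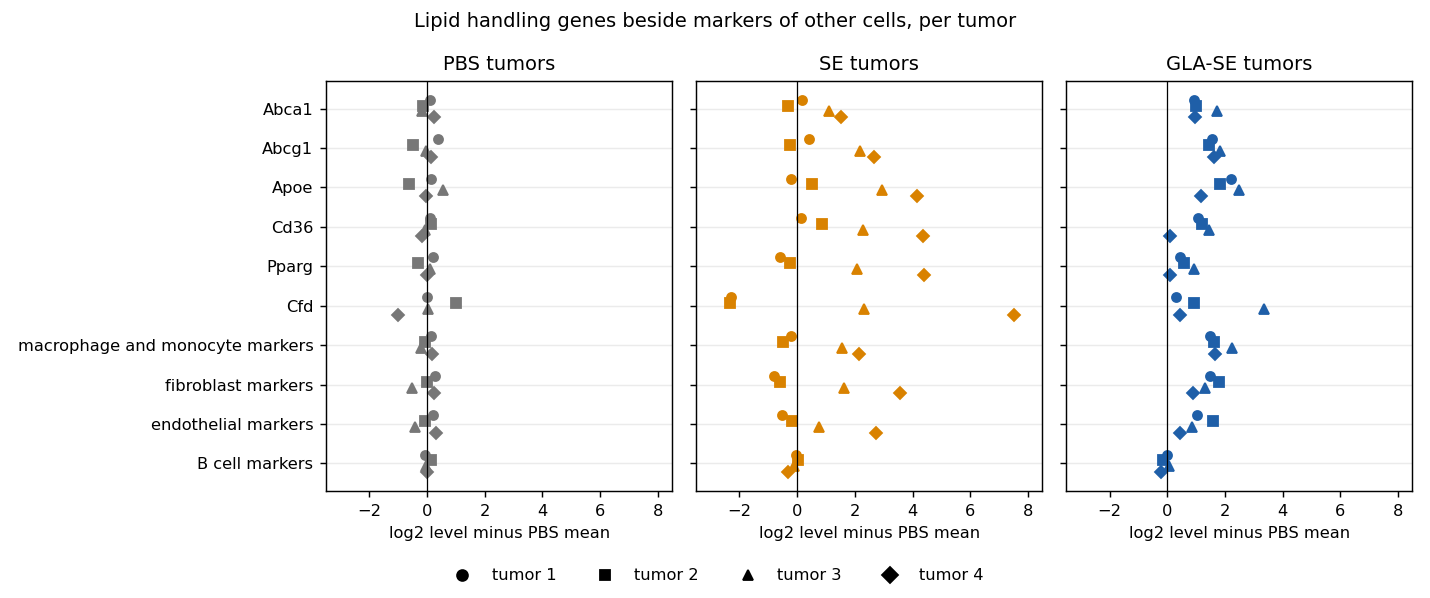
Log2 level of each gene, or mean over the genes of each marker list, minus its mean over the 4 PBS tumors, on the reference-scaled counts; each symbol is 1 tumor. SE 3 and SE 4 are to the right for the 5 genes, Cfd and the macrophage, fibroblast and endothelial markers, with Cfd at 7.52 in SE 4, and the B cell markers stay near 0 in all 12 tumors.

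Each gene was also set against the 9 macrophage and monocyte markers of the same tumor, as log2(normalized count + 1) minus the mean of the same over the markers, in which the scaling of a tumor cancels but for the pseudocount, which matters most for Pparg. In this ratio Abca1, Cd36 and Pparg were lower in GLA-SE than in PBS tumors, without overlap, by -0.60, -0.80 and -1.24 on the log2 scale (two-sided exact permutation p = 0.0286 each, n = 4 against 4). That is 3 of 5 genes, against 58% of the 741 tested genes outside the marker list, whose median difference was -0.89. Abcg1 and Apoe kept close to the markers, at -0.14 and 0.17 (exact p = 0.429 and 0.686). With Csf1r, Emr1 and Cd68 alone as markers Cd36 was -0.59 and no longer passed (exact p = 0.0857). Among the 9 markers Fcgr1 rose by 2.62, and Cd14 by 3.71 with a range of 369 to 6806 normalized counts in GLA-SE tumors.

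In SE tumors the ratio of Cd36 to the macrophage markers was -0.51, 0.50, -0.14 and 1.34 for tumors 1 to 4. In PBS tumors it was -0.91, -0.63, -0.72 and -1.20, and in GLA-SE tumors -1.26, -1.28, -1.65 and -2.45. The 3 groups did not overlap, in the order SE, PBS, GLA-SE. Of the 741 genes outside the marker list, 0.81% had all SE tumors above all PBS tumors, and 58% had all GLA-SE tumors below all PBS tumors. The lowest PBS tumor and the highest GLA-SE tumor were close, at -1.20 and -1.26. In SE 1 the level of Cd36 itself was within the PBS range, and its macrophage markers were below the PBS mean. The difference between SE and PBS was 1.16, or 0.81 without SE 4 (exact permutation p = 0.0286 with all 4 against 4 tumors).

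Abcg1 was also higher in SE than in PBS tumors in this ratio, by 0.51 (exact permutation p = 0.0286, n = 4 against 4), but the lowest SE and the highest PBS tumor were both at -1.01. With Csf1r, Emr1 and Cd68 alone the difference was 0.54 and did not pass (exact p = 0.0857). These are 2 of the 5 genes, against 0.81% of the 741 genes, whose median difference was -0.37. The ratio of Apoe was higher by 1.11 with overlap (exact p = 0.0857), that of Pparg by 0.67 (exact p = 0.314, and 0.14 without SE 4), and that of Abca1 lower by -0.13 (exact p = 0.571).

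Between GLA-SE and SE tumors, Abcg1, Cd36 and Pparg were lower in GLA-SE in the ratio, by -0.65, -1.96 and -1.90, without overlap (exact permutation p = 0.0286 each, n = 4 against 4). That is 3 of 5 genes, against 10.1% of the 741 genes. The median difference of the 741 genes was -0.60, close to that of Abcg1. Without SE 4 the differences of Abcg1, Cd36 and Pparg were -0.65, -1.61 and -1.37. Pparg was near the limit of the assay in all GLA-SE tumors and in SE 1 and SE 2. Abca1 and Apoe differed by -0.47 and -0.94 with overlap (exact p = 0.143 and 0.114). In all, 15 such ratios were compared and the p values were not adjusted.

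**Figure D4:**
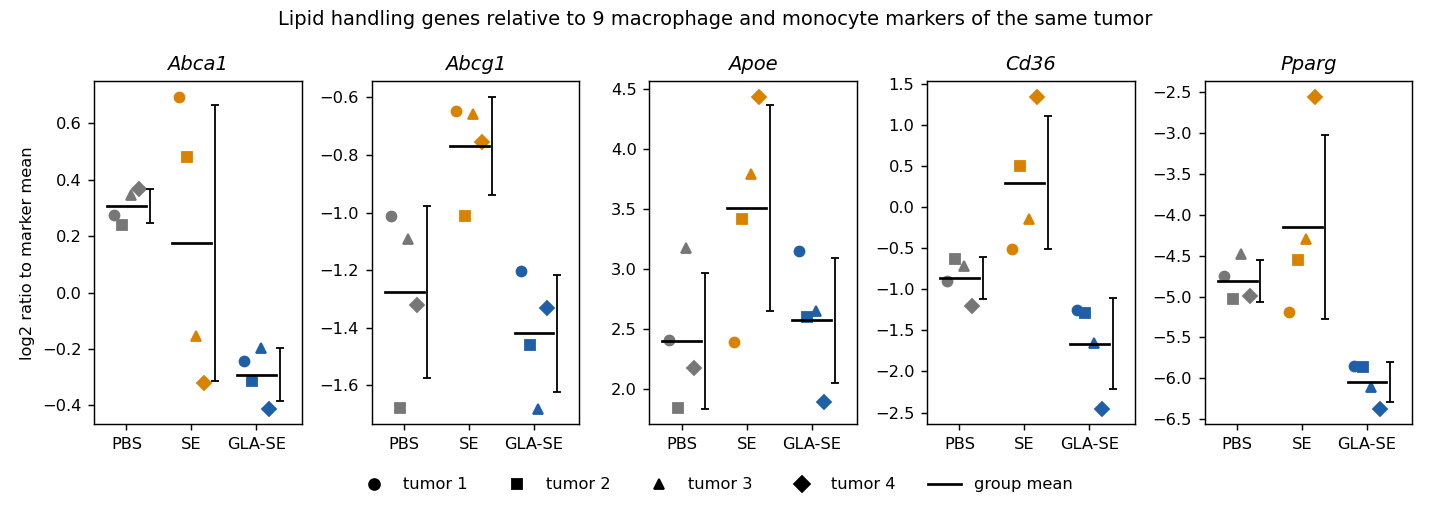
Log2 ratio of each gene to the mean of 9 macrophage and monocyte markers of the same tumor, in PBS, SE and GLA-SE tumors (4 each); symbols are tumors, lines group means and bars the SD. For Cd36 the 3 groups are separate, with SE tumors from -0.51 to 1.34, PBS tumors from -1.20 to -0.63 and GLA-SE tumors from -2.45 to -1.26. Of the 741 genes outside the marker list, 0.81% have all SE tumors above all PBS tumors, and 58% have all GLA-SE tumors below all PBS tumors.

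Across the 12 tumors the 5 genes rose and fell together to different degrees. Pearson's r of the log2 levels was highest for Cd36 with Pparg (0.95), for Abca1 with Abcg1 (0.94) and for Abcg1 with Apoe (0.93), and lowest for Abca1 with Pparg (0.68). Among 674 genes with a mean of at least 20 normalized counts, the 3 most like Abca1 were Il4ra, Irak2 and Fcer1g (r = 0.98 each). Those most like Abcg1 were C1qb, Map2k4 and C1qa (0.97, 0.96 and 0.96), of which C1qa and C1qb are macrophage markers used here. Those most like Apoe were Axl, Cd33 and Colec12 (0.97, 0.96 and 0.96). For Cd36 they were Pparg, Atg12 and Tab1 (0.95, 0.95 and 0.94), and for Pparg they were Cma1, Itga6 and Mme (0.97, 0.96 and 0.95). Without SE 4, r between Cd36 and Pparg was 0.84, while that of Abca1 with Il4ra was 0.98. Over all 12 tumors, Spearman's rho was 0.70 for Cd36 with Pparg and 0.93 for Abca1 with Il4ra. These values are descriptions: the genes were measured in the same 12 tumors and share their scaling and treatment groups.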

How the data were processed

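RNA from 12 A20 tumors (4 PBS, 4 SE and 4 GLA-SE, grouped by the sample labels, 1 tumor a mouse) was counted on NanoString's mouse panel of cancer immunity genes. The authors deposited 1 table of counts for 770 genes. The methods describe normalization in nSolver, but the values are whole numbers whose totals differ between tumors (810260 to 1612415), so they were treated as counts without normalization. No build applies to them, and 0 columns were left unused. Precision is limited by 4 tumors a group and, for Pparg, by counts near 20.

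Each tumor was divided by a factor taken from the geometric mean of 16 of the 20 reference genes that geNorm kept over all 12 tumors (Alas1, Eef1g, G6pdx and Gusb were dropped). The other 750 genes were compared pairwise with edgeR 4.0.16 (quasi-likelihood, R 4.3.3), with no filter and no covariates, and Benjamini-Hochberg adjustment over the 750 genes at 0.05. Single values were compared with two-sided exact permutation tests over 70 assignments of 4 against 4 tumors (scipy 1.17.1). Ratios to markers were taken on log2(normalized count + 1). Fits were tested on simulated data. Plots used Python 3.11.15 and matplotlib 3.10.9.

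The 5 genes, the gene lists and the tests were chosen with earlier results of these data known. Genes named are the 5 genes, those of the lists of related genes and markers, and for each of the 5 the 3 genes with the highest Pearson r among genes with a mean of at least 20 normalized counts. Motifs were searched on both strands of the 250 bases before each start. Promoter sequences are those of RefSeq, GRCm38.p6, in which Abcg1 had 0 windows. Alternatives were reference genes selected within each comparison, all 20 reference genes, panel median and TMM scaling, no rescaling, DESeq2 1.42.0 with its own or the reference size factors, limma 3.58.1 with a pseudocount of 1, a filter of 20 counts in 4 tumors, 1 fit over all 12 tumors, a block for the replicate number of the labels, leaving out each tumor in turn, 3 markers or a pseudocount of 10 for the ratios, and Spearman correlation.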

Additional observations from a re-analysis of the deposited data

Results flagged for a closer look

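Within groups of 4, a tumor was singled out where its gap to the nearest other tumor took up most of the range of its group (Dixon's criterion). Of 18 sets of 4 tumors searched for the 5 genes and Cfd, 3 were singled out. The criterion was applied to normalized counts without logs, which widens the gap above a high tumor. At 5%, about 0.9 sets would be expected if counts within a group were normally distributed, which was not tested. Abca1 in GLA-SE 3 was 3046 normalized counts, and the other GLA-SE tumors had 1743 to 1851. Cfd in SE 4 was 71141 normalized counts, and the other SE tumors had 76.7 to 1929. Cfd in GLA-SE 3 was 3952 normalized counts, and the other GLA-SE tumors had 475 to 727.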

How the results depend on the processing

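For GLA-SE against PBS, panel median scaling gave -0.14 for Abca1, 0.32 for Abcg1, 0.62 for Apoe, -0.30 for Cd36 and -0.76 for Pparg. TMM scaling gave 0.25 for Abca1, 0.091 for Cd36 and -0.38 for Pparg, and DESeq2 with its own size factors gave 0.31, 0.16 and -0.32. With all 12 tumors in one fit Apoe (1.94) and Cd36 (1.03) were not called. Leaving out 1 tumor moved Pparg between 0.38 and 0.66. The panel had 516 calls (513 higher and 3 lower), 316 with TMM (148 and 168), 342 with DESeq2 (190 and 152), 255 with all 12 tumors, and 368 with panel median scaling, of which 61 were higher and 307 lower. For SE against PBS, DESeq2 called 9 genes with its own and 53 with the reference size factors, with 1.89 and 2.81 for Cd36, and with the latter 1.67 for Abcg1, 2.75 for Apoe and 2.77 for Pparg. For GLA-SE against SE, panel median scaling gave -0.25 for Abca1 and 0 calls, TMM 3 calls, no rescaling 89 calls and 0.30 for Abcg1, all 12 tumors 79 calls, and DESeq2 72 calls with its own and 108 with the reference size factors. DESeq2 with its own size factors gave -1.79 for Cd36 and -2.13 for Pparg, and limma 0.35 for Abcg1 and 0.067 for Apoe. Leaving out 1 tumor gave 4 to 105 calls, -0.41 to 0.46 for Abcg1 and -1.18 to 0.26 for Apoe. In the ratios, 3 markers gave 0.064 for Abcg1 and -0.59 for Cd36 (GLA-SE against PBS), 0.54 for Abcg1 (SE against PBS) and -0.47 for Abcg1 (GLA-SE against SE), and a pseudocount of 10 gave 0.50 for Abcg1 (SE against PBS). With 3 against 4 tumors the exact test cannot go below 0.0571. With Spearman correlation 1 of the 3 genes most like Abca1 remained and 0 of those most like the others. Of all values recomputed, 439 kept their direction and side of the threshold or, for counts of calls, stayed within 1.5 times whatever their direction (3 of them were uncalled ratios that crossed 0 when 1 tumor was left out, Abca1 for SE against PBS at 0.034 and Apoe for GLA-SE against PBS at -0.023 and -0.015), 15 changed sign, 12 fell below and 8 rose past the threshold, and 23 moved further. The cause of the changes was not tested.

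The labels number the mice of each group and do not say whether same-numbered tumors share anything else. Deviations of same-numbered tumors correlated between -0.25 and 0.18, which cannot show that nothing is shared. With the replicate number as a block the same 4 genes were called for GLA-SE against PBS (1.15, 1.61, 1.92 and 0.96, Pparg 0.53), with 439 calls over the panel. For GLA-SE against SE the block gave 0 calls, 0.35 for Abcg1 and 0.18 for Apoe, and for SE against PBS 0 calls.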
